A study of Arabidopsis thaliana with 12 samples.

Results

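The Arabidopsis chromosomes 1 to 5 carried 369 gene records annotated as snoRNA or snRNA in the RefSeq TAIR10.1 annotation, 287 of them snoRNA and 82 snRNA, of 37899 gene records in all. They were chosen by that annotation class and not by any accessibility value. ATAC-seq, which marks DNA that the Tn5 transposase can enter, was performed on 12 samples of whole Arabidopsis thaliana seedlings of the Col-0 ecotype, 10 days after germination. The genotypes were the Polycomb mutants bmi1abc, clf28swn7, emf1-2, lhp1 and ring1ab and WT, with 2 replicates each; the mutants carry mutations in genes of Polycomb repressive complexes 1 or 2 or of proteins associated with them, and WT carried none of these. The measurement used here was the merged list of 23226 transposase hypersensitive sites (THSs), that is, peaks of accessible chromatin found in both replicates of at least 1 genotype. The list gave a position for each THS but no genotype and no height, so that from it no mutant could be compared with WT and no test between genotypes could be run. In whole seedlings, an opening in few cells and a weak opening in many cells cannot be told apart.

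Small nucleolar RNAs (snoRNAs) guide the chemical modification of ribosomal RNA in the nucleolus. Box C/D snoRNAs direct 2′-O-methylation by fibrillarin, box H/ACA snoRNAs direct pseudouridylation by dyskerin, and U3 acts in cleavage of the ribosomal RNA precursor. In plants many snoRNAs are encoded in clusters that are transcribed as 1 precursor from a shared promoter, while others lie inside host genes. Small nuclear RNAs (snRNAs) form the core of the spliceosome: U1 recognises the 5′ splice site, U2 the branch point, and U4, U5 and U6 join as a tri-snRNP, with U12, U4atac and U6atac serving the minor class of introns. Plant snRNA genes are driven by an upstream sequence element (USE) and a TATA box just before the transcribed sequence. The spacing between both elements is known to decide whether RNA polymerase II (U1, U2, U4, U5) or RNA polymerase III (U6 and plant U3) transcribes the gene.

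The sequences below are shown because the accessible regions at snRNA genes lay on this promoter. Each runs from 100 bases before to 20 bases after the start of the matched snRNA or U3 sequence in the RefSeq TAIR10.1 genome. That start can lie some bases away from the first base of the RNA. All are given on their own strand, 5′ to 3′. Capitals mark the USE core (CCCACATCG) and the first TATAAA after it, or the first TATA after it where TATAAA was not found there. The first 4 genes had a THS over the gene or 1 kb upstream, and the last 2 did not.
U2.1, chr1:5758282-5758401, plus strand, THS: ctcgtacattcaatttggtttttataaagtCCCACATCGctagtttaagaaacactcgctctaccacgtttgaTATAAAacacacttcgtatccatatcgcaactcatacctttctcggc
U5.5, chr1:8525195-8525314, minus strand, THS: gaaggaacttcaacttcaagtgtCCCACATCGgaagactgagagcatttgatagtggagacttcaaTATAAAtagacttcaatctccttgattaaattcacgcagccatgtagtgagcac
U6-26, chr3:4561001-4561120, plus strand, THS: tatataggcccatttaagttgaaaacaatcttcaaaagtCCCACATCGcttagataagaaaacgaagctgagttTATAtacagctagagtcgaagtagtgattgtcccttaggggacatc
U3D, chr5:21945601-21945720, minus strand, THS: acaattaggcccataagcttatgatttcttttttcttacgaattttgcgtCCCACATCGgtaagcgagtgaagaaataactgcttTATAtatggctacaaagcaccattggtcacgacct
U2.2, chr3:21346639-21346758, plus strand, no THS: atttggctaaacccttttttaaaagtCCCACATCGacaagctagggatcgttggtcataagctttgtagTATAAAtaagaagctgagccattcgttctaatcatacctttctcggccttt
U6.6, chr4:16754728-16754847, plus strand, no THS: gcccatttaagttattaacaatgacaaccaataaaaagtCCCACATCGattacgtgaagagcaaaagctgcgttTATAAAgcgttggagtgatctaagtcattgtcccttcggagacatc

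The sequences before 4 snoRNA clusters are shown for the letters they carried and for their THSs. Each window runs from 250 bases before to 50 bases after the first base of the first snoRNA record. Capitals mark the telo-box (AAACCCTA) and site II (TGGGCC or TGGGCT) on either strand, motifs that are known from promoters of plant ribosomal protein genes and other genes of the translation machinery. The clusters that begin with AT3G21805, SNOR37-2 and AtU31b had a THS upstream, and the cluster that begins with AtU31a, a paralogue of the AtU31b cluster, had none.
AT3G21805 cluster, chr3:7682112-7682411, plus strand, THS: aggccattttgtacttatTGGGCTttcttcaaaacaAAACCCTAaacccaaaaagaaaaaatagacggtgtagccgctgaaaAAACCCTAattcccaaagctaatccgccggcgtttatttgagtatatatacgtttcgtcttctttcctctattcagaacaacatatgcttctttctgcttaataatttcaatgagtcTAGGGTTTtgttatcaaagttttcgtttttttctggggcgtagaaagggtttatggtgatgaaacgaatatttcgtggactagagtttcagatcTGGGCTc
SNOR37-2 cluster, chr4:8713304-8713603, minus strand, THS: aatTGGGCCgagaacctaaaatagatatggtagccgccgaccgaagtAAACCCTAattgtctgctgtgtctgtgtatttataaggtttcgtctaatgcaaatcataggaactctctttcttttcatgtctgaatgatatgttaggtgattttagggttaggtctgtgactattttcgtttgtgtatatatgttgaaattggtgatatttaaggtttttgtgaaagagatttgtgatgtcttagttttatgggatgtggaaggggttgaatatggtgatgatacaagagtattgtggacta
AtU31b cluster, chr1:10308501-10308800, plus strand, THS: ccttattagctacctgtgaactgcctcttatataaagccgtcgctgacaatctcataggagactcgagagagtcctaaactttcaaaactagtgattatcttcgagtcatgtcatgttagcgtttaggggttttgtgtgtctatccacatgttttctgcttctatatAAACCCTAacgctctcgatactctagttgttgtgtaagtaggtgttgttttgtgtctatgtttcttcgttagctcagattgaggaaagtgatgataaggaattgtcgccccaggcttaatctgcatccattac
AtU31a cluster, chr1:10300101-10300400, plus strand, no THS: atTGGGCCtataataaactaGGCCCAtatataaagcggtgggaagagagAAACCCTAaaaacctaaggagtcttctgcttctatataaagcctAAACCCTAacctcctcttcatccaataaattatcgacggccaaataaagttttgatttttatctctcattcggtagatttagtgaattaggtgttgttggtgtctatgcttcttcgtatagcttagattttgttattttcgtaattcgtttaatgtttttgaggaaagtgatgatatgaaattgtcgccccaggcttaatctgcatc

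Of the snoRNA records, 200 of 287 (69.7%) had a THS on the gene or in the 1 kb before its start, with a 95% Wilson interval of 64.1% to 74.7%. In the same window, 47 of 82 snRNA records (57.3%, 46.5% to 67.5%) had one, against 52.3% of all gene records and 60.1% of protein-coding genes. The interval of the snoRNA record share lay above both background shares, and that of the snRNA share held both. When neighbouring snoRNA records were joined into loci, 94 of 141 loci had a THS (66.7%, 58.5% to 73.9%), an interval that held the share of protein-coding genes, and with 500 bp upstream the snoRNA record share was 51.6%, against 55.0% of protein-coding genes and 47.3% of all gene records. These intervals cover counting error only, and because neighbouring records share THSs the records are not independent. The 2 classes differed in where the THS lay. On the record itself a THS was found at 20 of 287 snoRNA records (6.97%) and at 38 of 82 snRNA records (46.3%), against 37.5% of all gene records, most of which are longer. In the 100 bp before the start, 27 of 287 snoRNA records (9.41%) and 36 of 82 snRNA records (43.9%) had a THS, against 26.7% of all gene records and 32.6% of protein-coding genes. Coverage per base does not grow with gene length, and here all gene records stood below both classes. On the record it can fall with length, because THSs lie near gene starts. Protein-coding genes were covered at 26.1% at their first base and at 7.15% at 200 bp. The on-record shares of these short records and of all gene records therefore cannot be compared apart from length. THSs covered 6.27% of the bases of snoRNA records and 17.5% of their upstream 1 kb, and 40.2% of the bases of snRNA records and 14.5% of their upstream 1 kb, against 3.69% of the bases of all gene records and 11.2% of their upstream 1 kb, with 6.30% for chromosomes 1 to 5 as a whole. Per base the snRNA records thus exceeded the snoRNA records on the record, and the snoRNA records exceeded the snRNA records in the upstream 1 kb. In all, 17.2% of the bases in the windows of the 369 records were covered.

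**Figure D1:**
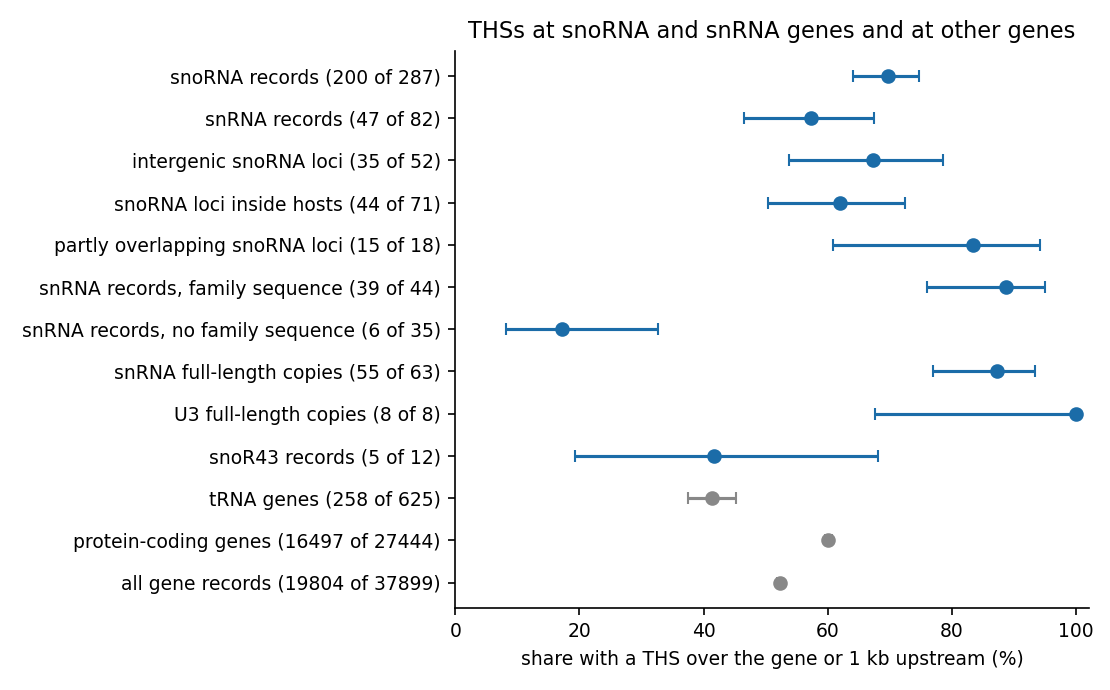
Share (x axis, percent) of records, loci or sequence copies with a THS over the gene or 1 kb upstream, with 95% Wilson intervals as bars; the numbers with a THS and in all stand beside each name, and background classes are in grey. snRNA records that carried the sequence of their family stood at 88.6% and those that did not at 17.1%, with all gene records at 52.3%.

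The members met 153 THSs, whose lengths had a median of 312 bp; over all 23226 THSs it was 254 bp. Of these, 113 (73.9%) also lay over the start or 1 kb upstream of another gene record, and 86 (56.2%) of a protein-coding gene, so that most THSs counted here could not be assigned to the small RNA gene alone. At intergenic snoRNA loci 15 of 39 THSs (38.5%) were shared with a protein-coding gene in this way. The 5 longest THSs at members measured 1129 bp at AtsnoR67 on chromosome 5, 1101 bp at U1.7 and 891 bp at AtsnoR93 on chromosome 3, 1068 bp over the cluster of AtsnoR32-2, U27-2 and AT4G13245 on chromosome 4, and 1057 bp at U4.2 on chromosome 3. AtsnoR93 lies in AT3G09440, an HSP70 chaperone gene, whose THS covered the host start and not the snoRNA. The AtsnoR32-2 cluster was the only intergenic cluster of 3 or more records that a THS covered from its first to its last record.

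Records at most 1 kb apart were joined into 215 loci, 141 of snoRNA records, 73 of snRNA records and 1 of both. A single record made up 136 loci, and the largest 2 loci held 6 records each. Of the snoRNA loci, 52 were intergenic, 71 lay wholly inside a host gene of another class, and 18 overlapped another gene in part. A THS was found at 35 of 52 intergenic snoRNA loci (67.3%, 53.8% to 78.5%), at 44 of 71 loci inside host genes (62%, 50.3% to 72.4%) and at 15 of 18 partly overlapping loci (83.3%, 60.8% to 94.2%). The intervals of the intergenic and the hosted loci overlapped for most of their length, so that no difference could be read from these counts. Loci of 2 or more records had a THS in 53 of 70 cases (75.7%, 64.5% to 84.2%) and loci of a single record in 41 of 71 (57.7%, 46.2% to 68.5%); a cluster has a longer window, and the intervals overlapped.

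At snoRNA clusters the counted THS lay mostly before the first record. Only the records and the 1 kb before them were searched, so THSs beyond the last record do not enter these counts. Most of that window lies upstream of such short records, which favours an upstream position. Of the 35 intergenic snoRNA loci with a THS, 25 had their nearest THS wholly upstream of the first record and 10 had it over the first base. Among loci of 2 or more records it lay upstream in 22 of 24 and over the start in 2, and among loci of a single record it lay upstream in 3 of 11 and over the start in 8. The single records with a THS over the start were snoR43 records, SNOR105, AtsnoR146 and SNOR108, which are described below, and AtsnoR94. Clusters of the other kinds also had it upstream, in 14 of 16 hosted and in 12 of 13 partly overlapping loci of 2 or more records. Hosted loci of a single record had it upstream as well, in 25 of 28, so that among hosted loci this position was not particular to clusters. The gap between an upstream THS and the first snoRNA had a median of 154 bp, with quartiles of 119 and 172 bp and a range of 38 to 396 bp, and it was at most 300 bp in 24 of 25 loci; at partly overlapping loci the median was 119 bp and at hosted loci 343 bp. The share of intergenic snoRNA loci covered by a THS was highest, at 28 of 52 (53.8%), between 280 and 210 bp before the first record. It was 19.2% at the first base and 3.85% at 200 bp after it. Protein-coding genes were covered most often 60 bp before their start (28.5%), with 26.1% at the start itself. The annotated first base of a snoRNA is the end of the mature RNA and not the start of the transcript, and transcription starts were not measured here.

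**Figure D2:**
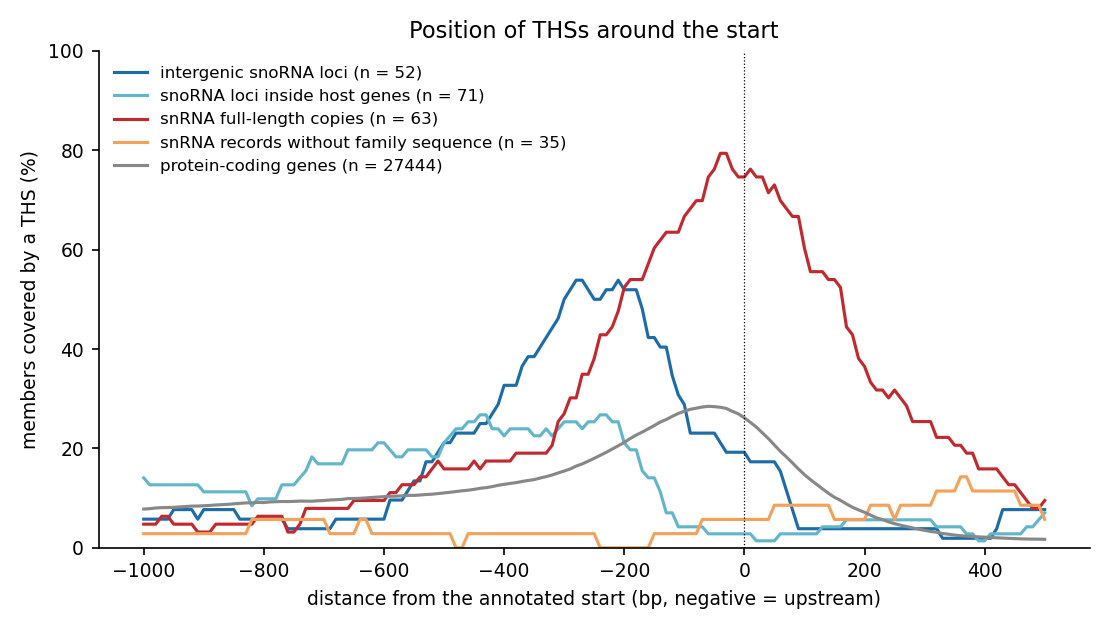
Share of members covered by a THS (y axis, percent) at each position from 1000 bp before to 500 bp after the annotated start (x axis, 10 bp steps). Intergenic snoRNA loci peaked at 53.8% between 280 and 210 bp upstream, snRNA full-length copies at 79.4% between 40 and 30 bp upstream, and protein-coding genes at 28.5% at 60 bp upstream.

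The largest clusters showed the arrangement singly. The AtsnoR88-2 cluster of 6 records (chr3:17445266-17446047) had a THS from 442 to 253 bp before its first record and none on any record. The SNOR37-2 cluster of 5 records (chr4:8712523-8713353, minus strand) had one from 313 to 171 bp before, and the AT4G39361 cluster of 5 records (chr4:18304891-18305704) from 374 to 141 bp before. The snoR157 cluster of 6 records (chr2:18973209-18974352), which partly overlaps the noncoding gene AT2G46192, had a THS of 300 bp over its first record. In none of these 4 clusters did the THS reach the second record. The AtsnoR134-1 cluster of 5 records (chr1:875056-875823) had no THS, and neither had its relative of 4 records that begins with snoR134 (chr1:1008592-1009356). A further relative, the AtsnoR134-3 cluster of 4 records (chr4:1445731-1446259, minus strand), had a THS from 360 to 43 bp before its first record. Of the 20 intergenic clusters of 3 or more records, 16 had a THS, and the other 4 began with AtsnoR134-1, AtsnoR14-2, snoR160 and AT2G20723.

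**Figure D3:**
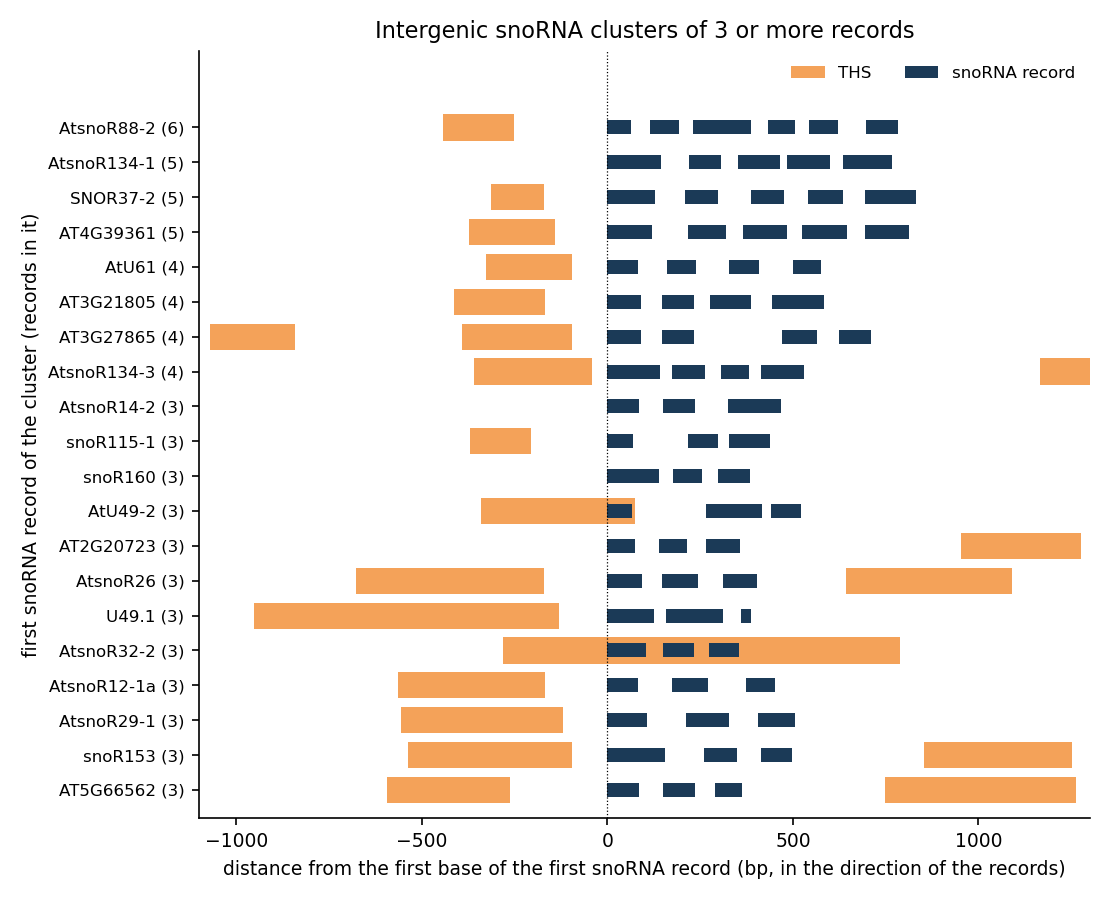
Map of the 20 intergenic snoRNA clusters of 3 or more records, with distance from the first base of the first record in bp along the direction of the records (x axis) and 1 row per cluster. Dark bars are snoRNA records and orange bars are THSs; in 16 clusters a THS counted for the cluster, mostly just left of the first record, and THSs far to the right lie beyond the counted window.

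Inside host genes, the THS lay in most cases also at the start of the host. Of 118 snoRNA records in a host on the same strand, 81 had a THS over the record or its 1 kb upstream. For 73 of these it also lay over the host start or the 1 kb before it. Many of these snoRNAs lie less than 1 kb into the host, so that both windows overlap. This count therefore cannot assign the THS to the host or to the snoRNA. On the record itself a THS was found for 1 of 70 records in protein-coding hosts and for 3 of 48 records in noncoding hosts. Noncoding hosts are here all hosts not annotated as protein-coding, the transcribed pseudogene AT2G10735 among them. Of the protein-coding hosts on the same strand, 30 of 46 (65.2%, 50.8% to 77.3%) had a THS over the start or 1 kb upstream, against 47.6% of all protein-coding genes. Noncoding hosts on the same strand had one in 26 of 28 cases (92.9%, 77.4% to 98.0%), against 40.8% of all gene records, most of which are protein-coding. Genes that hold a snoRNA on the opposite strand had one in 4 of 20 (20%, 8.07% to 41.6%), an interval that held the share of all gene records. THS coverage of host genes on the same strand was highest between 90 and 60 bp before the host start (51 of 74, 68.9%). At hosted snoRNA loci themselves it reached no more than 26.8%, spread from 440 to 230 bp before the snoRNA.

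Among the hosted loci with most records were the paralogous AtU31a and AtU31b clusters shown above, with 5 snoRNAs each. The AtU31b cluster lies in AT1G29465, an uncharacterized gene, and had a THS of 206 bp from 398 to 193 bp before AtU31b, over the host start. The AtU31a cluster (chr1:10300351-10301021) had none, although its window held a pair of telo-boxes and a pair of site II matches. The window of AtU31b held 1 telo-box. AtU31a, AtsnoR4a and AtU33a lie inside AT1G06227 on the opposite strand, and only AtU51a and AtsnoR5a lie inside AT1G29418 on the same strand. AT1G29418 starts at position 10300631, after AtU31a, so the start of this host does not lie before the cluster as that of AT1G29465 does. The noncoding gene AT1G18745, with snoR115-2, AtsnoR44-1a, AtsnoR44-1b and snoR122, had a THS of 132 bp that ended 32 bp before its start. AT1G08103, a noncoding gene with AtsnoR69Y, AtU29, AtsnoR25 and AtsnoR53Y, had a THS of 842 bp over its 3′ end and none at its start. AT2G43110, which encodes a subunit of the U3-containing 90S pre-ribosomal complex, had a THS from 408 bp before to 37 bp after its start, more than 1 kb from its 4 snoRNAs, so that these counted as without a THS.

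Several hosts act in translation or in the snoRNA pathway itself, and these were picked after their values were seen. RPL34, a ribosomal protein gene with AtsnoR110 and AtsnoR110-2a, had a THS from 206 bp before to 82 bp after its start. UBQ1, a ubiquitin extension protein gene with AtsnoR91, had one from 255 bp before to 232 bp after. The translation initiation factor gene EIF3G1, with AtsnoR87, had a THS at its start, and its paralogue EIF3G2, with AtsnoR87-2a and AtsnoR87-2b, had none. AT4G29410, a ribosomal protein L28e gene with 4 AtsnoR24 records, had none either. FIB1 and FIB2 encode fibrillarin and carry U60.1F (FIB1) and U60.2F (FIB2). Their starts had THSs of 454 and 1208 bp, while the snoRNAs lay 1589 bp (U60.1F) and 1473 bp (U60.2F) into the gene and had no THS within 1 kb upstream.

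The telo-box was found in the window of 27 of 52 intergenic snoRNA loci (51.9%, 38.7% to 64.9%), 20 of 71 hosted loci (28.2%) and 11 of 18 partly overlapping loci (61.1%), against 6.18% of all gene records. Site II was found in 22 of 52 intergenic loci (42.3%, 29.9% to 55.8%), 9 of 71 hosted loci (12.7%) and 9 of 18 partly overlapping loci (50.0%), against 19.3% of all gene records. Both motifs together were found in 15 of 52 intergenic loci (28.8%), against 1.98% of all gene records. Site II was also frequent before snRNA sequences, as given below. At the start of the host itself, 18 of 46 protein-coding hosts on the same strand held the telo-box (39.1%) and 21 of 46 site II (45.7%). Of the intergenic loci with a THS, 23 of 35 held the telo-box (65.7%, 49.2% to 79.2%), and of those without, 4 of 17 (23.5%, 9.56% to 47.3%). Site II was found in 18 of 35 loci with a THS (51.4%, 35.6% to 67.0%) and in 4 of 17 without (23.5%, 9.56% to 47.3%). At intergenic loci with a THS, 26 of 28 site II matches and 17 of 29 telo-boxes lay inside a THS. These matches came from 18 loci for site II and 23 for the telo-box. The median position over all intergenic loci was 216 bp before the first record for site II and 168 bp for the telo-box. Whatever the motif, a THS covered 28 of the 35 loci with a THS at 210 bp before the first record, and 25 at 170 bp. Whether the motifs lay inside a THS more often than other sequence at these positions was not tested. The 300 bp upstream of intergenic loci held a median of 0% repeated 50-mers both with and without a THS. Any repeated 50-mer was found at 3 of 35 loci with a THS and at 5 of 17 without, all of them snoR43 records described below and none above 13.5%; the part of repeats was not tested. A motif match is a match of letters and no evidence of a bound factor.

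A few snoRNA genes carried the snRNA type of promoter. The USE core followed by TATAAA was found at 3 of 52 intergenic snoRNA loci, against 0.113% of all gene records, and in no hosted locus (0 of 71, with an upper Wilson bound of 5.13%). These were SNOR105, AtsnoR146 and SNOR108, all single records and all with a THS in the 100 bp before the start. The USE core began 96, 78 and 92 bp before the record, and 33, 34 and 36 bases separated it from TATAAA. They are shown from 100 bases before to 20 bases after the start of the record, with both motifs in capitals.
SNOR105, chr1:10151755-10151874, minus strand: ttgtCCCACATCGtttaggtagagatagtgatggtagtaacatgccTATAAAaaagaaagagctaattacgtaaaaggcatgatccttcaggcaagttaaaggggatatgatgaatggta
AtsnoR146, chr1:23701078-23701197, plus strand: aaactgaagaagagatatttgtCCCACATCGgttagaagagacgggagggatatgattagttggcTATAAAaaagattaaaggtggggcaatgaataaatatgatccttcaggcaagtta
SNOR108, chr5:16598696-16598815, plus strand: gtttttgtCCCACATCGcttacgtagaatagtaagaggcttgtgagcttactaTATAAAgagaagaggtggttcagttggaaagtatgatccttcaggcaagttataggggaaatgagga

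The snoR43 group was of another kind. Of its 12 records, 9 lay 0 to 13 bp downstream of a tRNA-Gly gene on the same strand, an arrangement known in plants as a dicistronic tRNA and snoRNA transcript made by RNA polymerase III. A THS was found at 5 of 12 snoR43 records (41.7%, 19.3% to 68.0%) and at 4 of the 9 with a tRNA gene, against 258 of 625 tRNA genes (41.3%) and 69.7% of all snoRNA records. The interval of the 12 records held the 52.3% of all gene records and the 60.1% of protein-coding genes. In the 100 bp before the tRNA gene a THS was found for AtsnoR43.8, AtsnoR43.4 and AtsnoR43.12. Of the 17 intergenic snoRNA loci without a THS, 5 were snoR43 records. A unit with a THS and 1 without are shown with the tRNA in lower case and the snoRNA in capitals.
AT1G60910 and AtsnoR43.8, chr1:22428167-22428327, plus strand, THS: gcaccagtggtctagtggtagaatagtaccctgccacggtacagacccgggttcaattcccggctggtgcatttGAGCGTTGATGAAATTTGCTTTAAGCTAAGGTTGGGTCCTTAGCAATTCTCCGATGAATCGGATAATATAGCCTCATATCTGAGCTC
AT1G60580 and AtsnoR43.7, chr1:22313324-22313484, minus strand, no THS: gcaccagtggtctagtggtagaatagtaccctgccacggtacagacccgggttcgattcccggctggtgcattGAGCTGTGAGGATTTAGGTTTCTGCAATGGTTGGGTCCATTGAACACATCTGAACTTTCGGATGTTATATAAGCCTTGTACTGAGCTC

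The records were checked against their class by sequence. Box C letters (TGATGA) near the 5′ end together with box D letters (CTGA) near the 3′ end were found in 120 of 287 snoRNA records on the sense strand and in 0 on the antisense strand, which allows a share of up to 1.32%. Of the records with these letters 78 of 120 had a THS (65.0%, 56.1% to 72.9%), and of records without them but with ACA near the 3′ end, as in box H/ACA snoRNAs, 48 of 68 (70.6%, 58.9% to 80.1%). The shares of the C/D-like and the H/ACA-like records thus overlapped. Many genuine snoRNAs diverge from these letters, and 28 of 287 records held ACA near the end of the antisense strand, so that the split is approximate.

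The snRNA records did not all hold what their names say. Only 44 of 82 carried a sequence like that of other records of their family, 35 did not, and 3 (both U12 records and U4atac) had no second record to compare with. Every one of the 35 had a family sequence elsewhere on the same strand within 25 kb, and its distance from the record took 1 or a pair of levels per chromosome. Together with a U12 record this made 36 pairs. For 28 of the 35 the family sequence was a full-length copy, with at least 80% coverage and 85% identity. For the others the match was shorter or less alike. The distance was 3663 to 4894 bp for 10 pairs on chromosome 1, 7083 and 7088 bp for 2 pairs on chromosome 2, 1238 to 10990 bp for 10 pairs on chromosome 3 and 17227 to 17264 bp for 14 pairs on chromosome 5. On chromosome 4 none of the records that could be compared lacked its family sequence; U4atac, 1 of the 10 there, could not be compared. The first displaced record began at position 18222202 on chromosome 1 and at 16183414 on chromosome 5. Some of these genes have a second, longer record over the family sequence, among them U2.6 (AT3G56705, 551 bp). The U2.6 record AT3G08695 is given as an example, since its first 40 bases do not resemble the U2 sequence found before it or the U2.1 record AT1G05273, which is in place.
U2.6 record AT3G08695, chr3:21015473-21015512, plus strand: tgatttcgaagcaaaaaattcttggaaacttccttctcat
U2.6 family copy, chr3:21004491-21004530, plus strand: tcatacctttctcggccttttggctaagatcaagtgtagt
U2.1 record AT1G05273, chr1:5758382-5758421, plus strand: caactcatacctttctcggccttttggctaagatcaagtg

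THSs lay at the family sequence more often than at the displaced record. A THS was found at 39 of 44 records with their family sequence (88.6%, 76.0% to 95.0%) and at 6 of 35 without (17.1%, 8.10% to 32.7%). In the 100 bp before the start the counts were 32 of 44 (72.7%) and 2 of 35 (5.71%). Within the 36 pairs, not all of which have a full-length copy, a THS was found at 27 family copies (75%, 58.9% to 86.2%) and at 6 records (16.7%, 7.87% to 31.9%). It was at the copy alone in 23 pairs, at both in 4, at the record alone in 2 and at neither in 7. The snoRNA records showed no such shift: beyond the first displaced snRNA record of a chromosome 47 of 122 held the box C and D letters (38.5%) and before it 73 of 165 (44.2%), and a THS was found at 69.7% of both sets. Whether other noncoding records of these chromosome arms, the noncoding host genes included, are displaced was not tested.

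**Figure D4:**
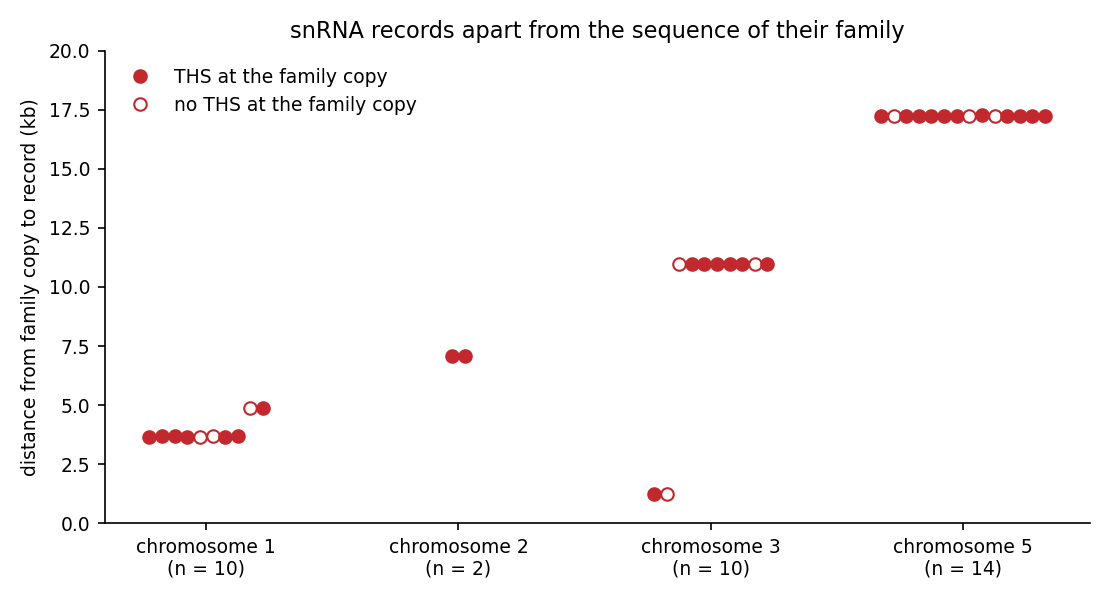
Distance in kb (y axis) between each of 36 snRNA records and the sequence of its family on the same strand, by chromosome (x axis) and in order along it; filled points have a THS at the family copy and open points do not. The distances form levels, 1 of them at 17227 to 17264 bp for all 14 pairs of chromosome 5, and 27 of the 36 points are filled.

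The genome was therefore searched for the snRNA sequences themselves, and 63 full-length copies were found, 42 under a snRNA record and 21 under none. A THS was found at 55 of 63 (87.3%, 76.9% to 93.4%), with 37 of 42 for copies under a record and 18 of 21 for copies under none. In the 100 bp before the start, 50 of 63 had one (79.4%, 67.8% to 87.5%), against 26.7% of all gene records. Coverage was highest between 40 and 30 bp before the start, where 50 of 63 copies were covered, and was still 74.6% at the first base and 36.5% at 200 bp, beyond the end of many of these RNAs. THSs covered 70.7% of the bases of the copies and 23.8% of their upstream 1 kb. Of the 63 copies, 37 overlapped another gene record, and the promoters of neighbouring genes may hold the same THS.

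By family, a THS was found at 10 of 11 U1 copies, 14 of 16 U2 copies, 9 of 9 U4 copies, 11 of 13 U5 copies and 7 of 10 U6 copies. The minor spliceosome copies, 2 of U6atac, 1 of U12 and 1 of U4atac, all had one. The 8 copies without a THS were U1.11p, U2.2, U2.16, U5.2, U5.9, U6-1, U6.6 and U6-29. U6-26, whose promoter is widely used to express guide RNAs in plants, had a THS from 175 bp before to 58 bp after its start, while U6-1 and U6-29 had none. Several U1 and U4 genes lie in tandem and shared a THS: 1 of 754 bp overlapped U4.6 and U1.10 on chromosome 1, and 1 of 672 bp U4.8 and U1.9 on chromosome 5. U4.7 and U4.1* had no THS of their own, but that of the U1 gene before them (U1.8 and U1a*) lay in their upstream 1 kb. The share of 50-mers that occur more than once in the genome was a median of 47.4% within copies with a THS and 29.5% within copies without. The reads were paired and longer than a 50-mer, so a repeated 50-mer need not keep a read from being placed. In the 300 bp upstream the median was 0% for both, and of the copies without a THS only U2.16 exceeded 50%, at 73.3%; the part of repeats in these counts was not tested.

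U3, the snoRNA that acts in ribosomal RNA cleavage, resembled the snRNA genes in the position of its THSs. Only U3B and U3D, both on chromosome 5, carried a record, but 8 full-length U3 sequences were found, 5 of them on chromosome 5 between positions 21811754 and 21990821. All 8 had a THS in the 100 bp before the start (lower Wilson bound 67.6%), and all 8 had the USE core. The THS at U3B spanned positions -292 to 182 relative to the start (bp), and that at U3D positions -299 to 182. In the remaining 6 copies the upstream edge lay between 93 and 362 bp before the start and the downstream edge between 189 and 410 bp after it.

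The USE core was found in the window of 52 of 63 snRNA copies (82.5%, 71.4% to 90%), against 0.282% of all gene records, and the USE core with TATAAA in 39 of 63 (61.9%, 49.6% to 72.9%), against 0.113%. In 29 of these 39 the stretch from the USE core to TATAAA lay inside a single THS. Site II was found in the same window of 37 of 63 snRNA copies (58.7%, 46.4% to 70.0%), against 19.3% of all gene records. The telo-box was found in 2 of 63 (3.17%), against 6.18%. Site II was thus not particular to snoRNA loci. The USE core began 70 or 71 bp before U1 copies, 69 to 74 bp before U2, 76 to 93 bp before U5, 60 to 62 bp before U6 and 50 to 59 bp before U3. These distances run to the edge of the matched sequence, which need not be the first base of the RNA, so part of their spread can come from that edge. The U5 copies farthest out, U5.10 (93 bp) and U5.11 (90 bp), were matched at coverages of 85.1% and 87.1%. Between the USE core and TATAAA lay 33 to 39 bases in U1, 33 to 36 in U2, 33 or 34 in U4 and 32 to 36 in U5, each with a median of 34. U6.6, the only U6 copy with TATAAA, had 26, and the only such U3 copy had 28. With TATA in place of TATAAA the spacing was 24 to 26 bases in 8 U3 copies, and in U6 it was 25 or 26 in U6-26, U6.2, U6.6 and U6-29 and 2 in U6.3 and U6.5. It was 33 to 35 in 9 U1 copies, 33 or 34 in 14 U2 copies, 31 to 34 in 13 U5 copies and 4 to 34, with a median of 33, in 7 U4 copies. U12 had 4 and U4atac 33. These spacings run to the first TATA letters, which need not be the TATA box. U4.7, U4.8 and U4.4 had 34 bases to TATAAA but 4, 6 and 9 to TATA. In the 100 bp before the start a THS was found at all 8 U3 copies. Of the 4 U6 copies with 25 or 26 bases, U6-26 and U6.2 had one there and U6.6 and U6-29 did not. U6.3 and U6.5, with 2 bases, had one too. By family the counts were 6 of 10 for U6, 10 of 11 for U1, 14 of 16 for U2, 6 of 9 for U4 and 11 of 13 for U5.

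Copies with the USE core and TATAAA had a THS in the 100 bp before the start in 33 of 39 cases (84.6%, 70.3% to 92.8%), and the remaining copies in 17 of 24 (70.8%, 50.8% to 85.1%), with overlapping intervals. U2.2 and U6.6, whose sequences are shown above, held both motifs and had no THS. Among the annotated records, 20 held both motifs at their start: U1.2, U1.4, U1.5, U1.6, U1.7 and U1.8; U2.1, U2.5, U2.10b/12, U2.11, U2.14 and U2.17; U4.2, U4.5, U4.7 and U4.8; U5.5, U5.7 and U5.10; and U6.6. All but U6.6 had a THS over the gene or 1 kb upstream. A further 20 full-length copies held both motifs before the sequence but not at the start of an annotated record. They were U1.3, U2.2, U2.3, U2.4, U2.6, U2.7, U2.8, U2.13, U2.15, U4.4, U4.9, U5.1b, U5.1*, U5.2, U5.3, U5.4, U5.8, U5.9, U5.11 and U5.12. None of the 35 records without their family sequence held the USE core (upper Wilson bound 9.89%).

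**Figure D5:**
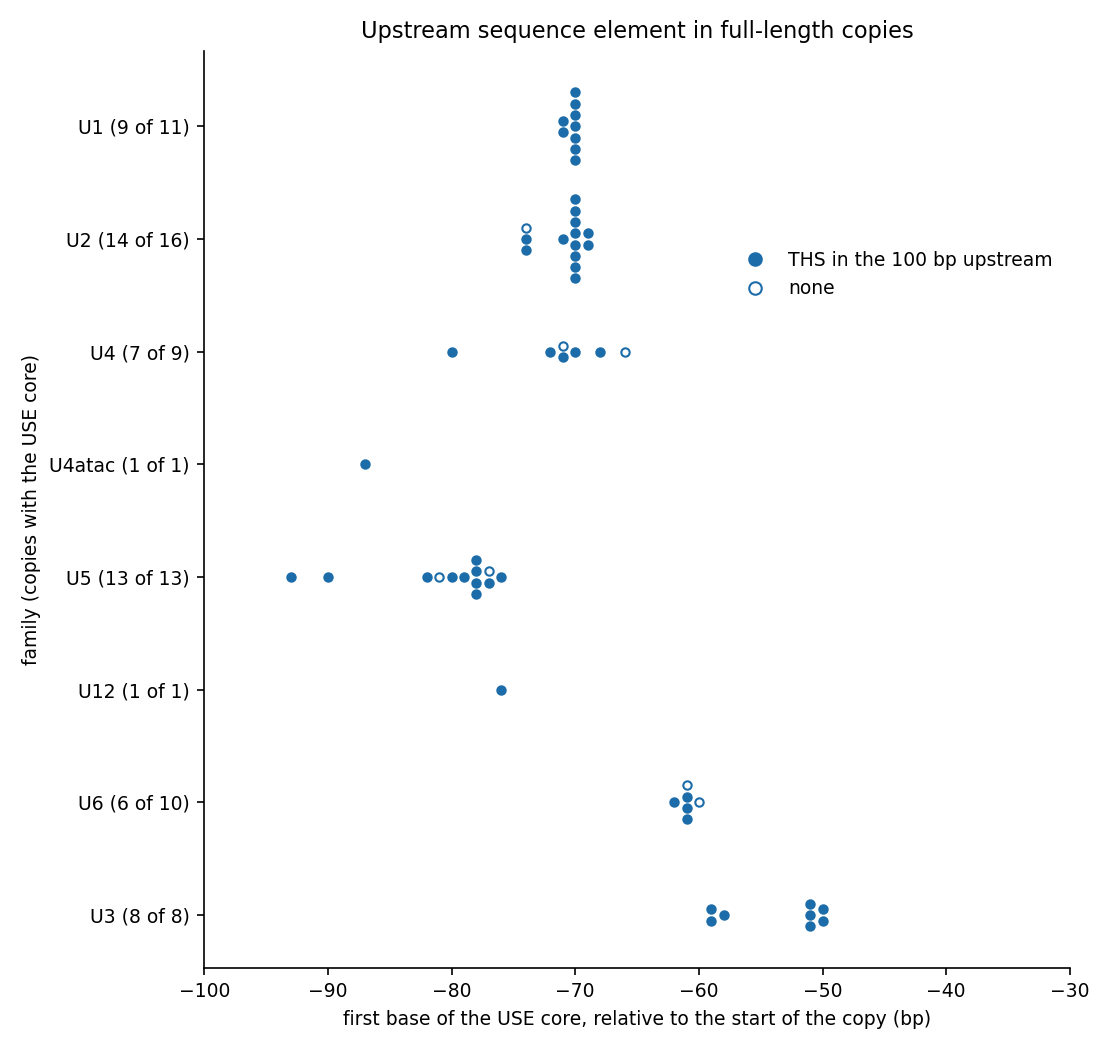
First base of the USE core relative to the start of each full-length copy in bp (x axis), by family (y axis). The start is the edge of the matched sequence, and the number of copies that hold the core stands beside each family. Filled points have a THS in the 100 bp upstream and open points have none. U1 and most U2 copies line up at 70 bp, U5 copies lie farther out and U6 and U3 copies closer in; a U6atac copy with the core inside the RNA and no THS in the 100 bp upstream is not drawn.

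Genes for the proteins that work with these RNAs were read from a fixed list. A THS over the gene or 1 kb upstream was found at 24 of 33 (72.7%, 55.8% to 84.9%), against 60.1% of protein-coding genes, whose share lay inside the interval. Counting THSs of at least 200 bp alone, it was 42.4%, against 45.9% of protein-coding genes. By role these were 6 of 8 box C/D snoRNP proteins, 4 of 4 box H/ACA snoRNP proteins, 4 of 6 factors of snRNA transcription and processing, 3 of 4 U1 and U2 proteins and 7 of 11 Sm proteins, which form the ring on most snRNAs. Those with a THS included NAP57, the plant dyskerin, with a longest THS of 644 bp, and SRD2, a subunit of the complex that binds the USE, with 301 bp. The 9 genes without one were AT5G27120, a NOP56-like gene; AT4G12600, an L7Ae-family gene; AT1G13030, a coilin-like gene; AT1G54380; U2A′ (AT1G09760); and the Sm protein genes SmD3, AT1G20580, AT4G30330 and AT3G11500. AT5G08180, an L7Ae-family gene of the H/ACA group, itself hosts AtsnoR100, AtsnoR100a and snoR140 and had its only THS, of 277 bp, inside the gene.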

How the data were processed

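Nuclei of 12 seedling samples (6 genotypes, 2 replicates each) were profiled by ATAC-seq. The authors trimmed the reads with Trimmomatic, aligned them with bowtie to TAIR10 without the organelle genomes, removed duplicates with Picard and regions of excessive coverage, called peaks with MACS2 (extension size 200 bp, q-value 0.05), kept regions shared by both replicates with bedtools and merged them over the genotypes. The paper then filtered the merged THSs by signal, and the final consensus list it reports is shorter than the 23226 regions used here. How reads with several matches were treated is not given in the sources used here. The deposited values used here are chromosome, start and end of each merged region, with no score, signal, sample or read depth, so no test, replicate error or depth could be given from them; shares carry 95% Wilson intervals. THSs of single genotypes were not analysed here.

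Members were the snoRNA and snRNA records of the RefSeq TAIR10.1 annotation on chromosomes 1 to 5, whose coordinates fit the TAIR10 list. A record counted with a THS if at least 1 bp of a region lay over the gene or the 1 kb before it. Records at most 1 kb apart on either strand formed a locus. Motifs were searched on both strands from 250 bases before to 50 after a start, with TATAAA at most 60 bases after the USE core. snRNA records were compared within their family by BLAST (2.17.0, e-value 1e-05), and copies in the genome were taken at an e-value of 1e-08; full-length copies had 80% coverage and 85% identity. Repeats were measured as 50-mers that occur more than once. Scripts were run in Python 3.11.15 with numpy 2.4.6, statsmodels 0.14.6 and matplotlib 3.10.9 and were tested on simulated data.

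Named were the 8 loci with most records, the loci with the 5 longest THSs, snRNA and U3 genes with both promoter motifs, the hosts of the 5 hosted loci with most records, and the genes of the fixed list without a THS; others were named after their values were seen. The members, lists and tests were chosen with earlier results of these data known. Alternatives were windows of 500 bp and 2 kb, regions of at least 200 bp, an overlap of 50 bp, other collapse distances, host definitions and motif letters.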

Additional observations from a re-analysis of the deposited data

How the results depend on the processing

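Of 54 alternative values of 10 results, 45 stayed close and 9 moved; close meant within the Wilson interval for shares, within 1.5 times for counts and covered bases, and within the quartiles for the gap. The snoRNA record share of 69.7% became 51.6% with 500 bp upstream, 77.0% with 2 kb and 55.1% with THSs of at least 200 bp. All gene records had 47.3%, 59.6% and 39.6% under these settings and protein-coding genes 55.0%, 67.3% and 45.9%, so that the snoRNA share fell below that of protein-coding genes with 500 bp. THSs of at least 200 bp also lowered the share of snoRNA loci to 52.5%, of loci inside host genes to 41.7% and of the pathway genes to 42.4%; these alternatives use fewer regions. Chosen after seeing the data, restriction to records with family sequence raised the snRNA share to 88.6% and use of full-length copies to 87.3%, and copies in place of records raised the number of snRNA and U3 genes with both promoter motifs, 20 as records and 29 with TATA for TATAAA, to 40. Over both classes, intergenic loci had a share of 61.0% and loci inside hosts 55.3%; counting only hosts on the same strand gave 58.1% and 60.8%, the other way round, and counting only protein-coding hosts gave 69.1% and 46.6%. No paired analysis was possible because the list carries no sample. The list is a union over genotypes, so a THS of 1 genotype counts as much as a THS of all 6, and a gene without a THS was not detected as open rather than shown to be closed.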
